A study of Mus musculus with 6 samples.

Results

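The genes described here encode heat shock proteins and the J-domain proteins (DNAJ co-chaperones) that work with them, measured in mouse acute myeloid leukaemia cells. Members were all genes with a row of exactly 1 symbol in the array annotation whose symbol begins with Hspa, Hspb, Hspd, Hspe, Hsph, Hsp90, Dnaja, Dnajb or Dnajc, together with Hsf2, Bag3 and Stip1. This gave 81 of 30142 genes, 73 of them protein coding and 8 pseudogenes in the reference table. Hspb11 and Hspbap1 entered by name, although neither encodes a chaperone. Hsf1, Hsp90ab1, Dnaja1 and Hspa1b had no row with 1 symbol and were not analysed here.

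The arrays covered 3 Dnmt3b-KO samples, from leukaemia cells in which the gene for the DNA methyltransferase Dnmt3b was knocked out, and 3 control samples from leukaemia cells of littermate origin. All 6 carried the MLL-AF9 fusion oncogene, which drives the leukaemia, and were flow-sorted from marrow of transplanted mice once the disease had reached its end stage. The deleted exons, the sorting markers, the age of the mice and whether each array is a separate mouse are not stated in the labels. The comparison asks which genes differ between Dnmt3b-KO and control leukaemia cells.

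Heat shock proteins are chaperones that bind unfolded or aggregating proteins and help them fold. HSP70 proteins do so in cycles of ATP hydrolysis, which J-domain proteins start and nucleotide exchange factors such as HSP110 end, and HSP90 receives client proteins from HSP70 through the adaptor encoded by Stip1. Heat shock factors switch on many of these genes under protein stress by binding inverted repeats of the bases GAA, called heat shock elements, and leukaemia cells are known to lean on HSP90 to keep oncoproteins folded.

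Values are on the log2 scale as deposited, and differences are Dnmt3b-KO minus control in log2 units. Array medians over all genes lay between 4.75 and 4.85. Dnmt3b-KO replicate 3 stood apart, with correlations of 0.981 to 0.982 across genes with the other 5 arrays, against 0.998 to 0.999 among those 5. Of 20 macrophage markers, 10 were higher by 1 or more on that array than the mean of Dnmt3b-KO replicates 1 and 2, and the list averaged 8.46 there and 5.80 to 5.92 on the other arrays. Some defining macrophage genes, such as Timd4 at 3.83 and Cd163 at 4.89, were no higher there. The 14 measured markers of MLL-AF9 leukaemia cells had mean values of 7.73 to 17.89, above the median gene at 4.79. That list averaged 12.28 on Dnmt3b-KO replicate 3 and 12.78 to 12.88 on the other arrays, with 11 of its 14 genes below all controls there and 5 lower by 1 or more, and over 5 arrays 1 of the 14 rose and 2 fell. The neutrophil list averaged 7.02 on the same array and 7.72 to 8.25 on the others, with 10 of 11 genes below all controls. The targeted gene Dnmt3b measured 6.47, 6.63 and 5.96 in Dnmt3b-KO, against 6.76, 6.83 and 6.78 in control, a difference of -0.44 ± 0.17 over 6 arrays (SE; adjusted p = 0.78) and -0.24 ± 0.07 over 5 (adjusted p = 0.16). Results are therefore given over all 6 arrays and over 5 arrays without Dnmt3b-KO replicate 3.

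Over 6 arrays no member differed past the threshold, an adjusted p under 0.05 in limma with adjustment over all genes, and neither did any other gene, so the share of all genes called was 0%. At an unadjusted p under 0.05, 7 of 81 members were lower in Dnmt3b-KO and 0 higher, where 3.58% and 2.79% of all genes were, 6.37% together. Among genes above the median level the lower side held 6 of 62 members and 5.56% of genes. The 7 were Dnajc6, Hspa1a, Stip1, Hsp90aa1, Bag3, Hsph1 and Hsp90b1. The median difference over the members was -0.04, with 50 below 0 and 31 above, and over all genes it was -0.00. The groups did not overlap for 9 members on the lower side and 2 on the higher side, where 8.21% and 6.68% of all genes did so. Among genes above the median level, 6 of 62 members did so on the lower side, against 11.6% of genes.

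Over 5 arrays 4 of 81 members were called. Hsph1, Dnajc6 and the pseudogene Hspe1-ps3 fell and Dnajb4 rose, against a background of 1.69% of all genes called. By direction 0.75% of all genes fell and 0.939% rose. Members were measured above the median gene in 62 of 81 cases, and among the 15071 genes above it 3.26% were called, against 4 of those 62 members. At an unadjusted p under 0.05, 15 members were lower and 7 higher, where 7.73% and 7.74% of all genes were, 15.5% together. The groups did not overlap for 19 members on the lower side and 13 on the higher side, where 17.4% and 15.1% of all genes did so. For these counts and those at the unadjusted p, shares among genes above the median level were not computed. Level is therefore not accounted for in them. The median difference over the members was -0.03, and over all genes -0.01. The mast cell, basophil and eosinophil list averaged 6.46, 6.64 and 5.67 in Dnmt3b-KO, against 7.34 to 7.38 in control, and 7 of its 13 genes fell and 1 rose over 5 arrays. The erythroid list averaged 5.43 to 5.66 in Dnmt3b-KO, against 5.86 to 6.23 in control, with 0 of 8 genes called. Immediate early genes, which respond to sample handling, averaged 7.78, 8.17 and 8.07 in Dnmt3b-KO, against 7.37, 7.47 and 7.73 in control, with 0 of 19 called. Their differences over 5 arrays ran from -0.31 to 1.92, with 13 above 0 and 6 below (smallest adjusted p = 0.063 in limma). On Dnmt3b-KO replicate 3 their departures from the mean of replicates 1 and 2 ran from -1.03 to 4.16. The part of these cells or of handling in the chaperone values was not tested, and fewer cells of a type cannot be told apart from less RNA per cell.

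**Figure D1:**
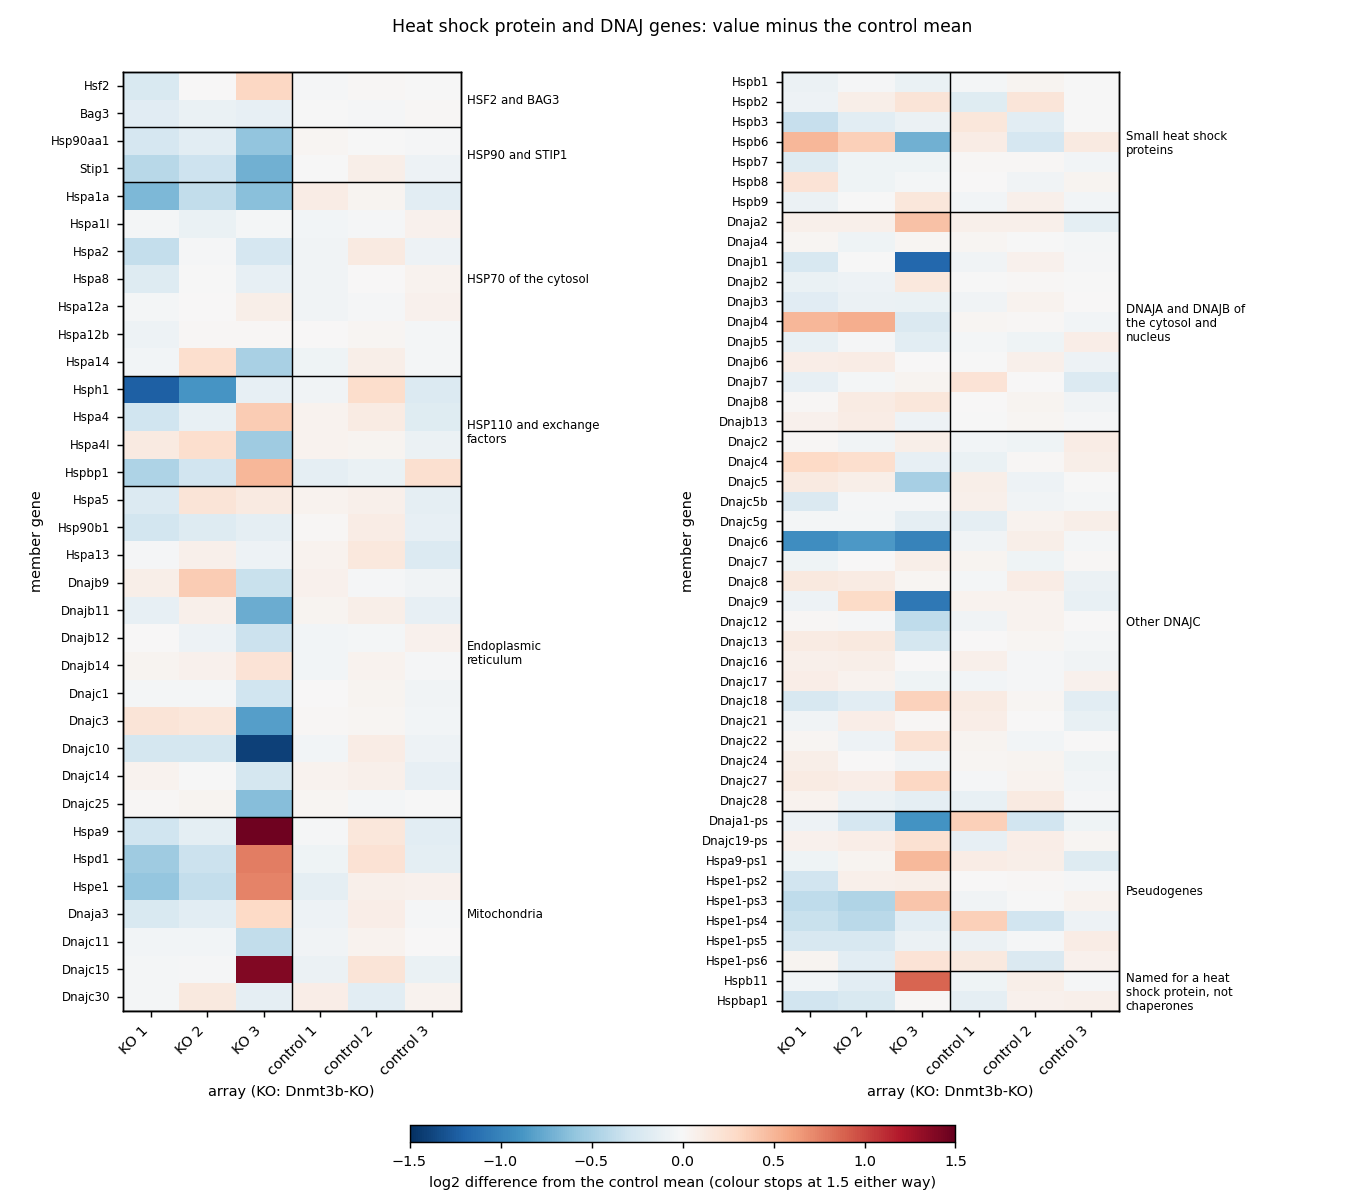
Value of each of the 81 member genes (rows, grouped by role) on each array (columns) minus the mean of the 3 control arrays, as a log2 difference from blue (below) to red (above). Dnajc6 is blue on all 3 Dnmt3b-KO arrays, Hsph1 on Dnmt3b-KO replicates 1 and 2, and Hspa9, Hspd1, Hspe1 and Dnajc15 are red on Dnmt3b-KO replicate 3 alone.

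The heat shock factor gene Hsf2 was near control on average. It measured 7.91, 8.14 and 8.45 in Dnmt3b-KO, against 8.12, 8.16 and 8.13 in control. The Dnmt3b-KO arrays lay on either side of the controls, and the difference was 0.03 ± 0.14 over 6 arrays (SE; adjusted p = 0.98) and -0.11 ± 0.08 over 5 (adjusted p = 0.58). Bag3, an exchange factor for HSP70 that serves in the autophagy of misfolded proteins, measured 6.71, 6.79 and 6.76 in Dnmt3b-KO, against 6.88, 6.87 and 6.91 in control. All 3 Dnmt3b-KO values lay below all controls, but the difference of -0.13 ± 0.05 did not pass (adjusted p = 0.78).

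The 2 members grouped at the HSP90 step lay below control on every Dnmt3b-KO array. Hsp90ab1 had no row with 1 symbol, so they are not the whole step. Hsp90aa1, the stress-inducible HSP90 of the cytosol, measured 16.19, 16.28 and 15.85 in Dnmt3b-KO, against 16.46, 16.43 and 16.42 in control. Stip1 measured 13.39, 13.49 and 13.08 in Dnmt3b-KO, against 13.79, 13.88 and 13.73 in control. The values did not overlap for either gene, and Dnmt3b-KO replicate 3 was the lowest array for both. On the lower side 8.21% of all genes, and 11.6% of those above the median level, did not overlap either. The difference for Stip1 was -0.48 ± 0.12 over 6 arrays (SE; adjusted p = 0.65) and -0.36 ± 0.07 over 5 (adjusted p = 0.075). For Hsp90aa1 it was -0.33 ± 0.12 over 6 arrays (adjusted p = 0.75) and -0.20 ± 0.06 over 5 (adjusted p = 0.17). Among the genes above the 40th percentile of level alone, Stip1 passed over 5 arrays (adjusted p = 0.044).

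Of the 7 HSP70 genes of the cytosol, none passed in either comparison. Hspa1a, the classic stress-inducible HSP70, was dim in the row annotated to it alone. It measured 3.51, 3.82 and 3.56 in Dnmt3b-KO, against 4.31, 4.24 and 4.03 in control. All these values lie below the median gene, so the size of the difference, -0.56 ± 0.12 over 6 arrays (SE; adjusted p = 0.57), is not exact. Hspa1a and Hspa1b are near-identical, and their signals may not be separable in this row. A brighter row annotated to both, which was not fitted, measured 5.69, 5.72 and 5.54 in Dnmt3b-KO, against 6.18, 6.29 and 6.16 in control, likewise without overlap. Hspa8, the constitutive HSC70, measured 18.95, 19.13 and 19.01 in Dnmt3b-KO, against 19.08, 19.14 and 19.19 in control. The groups overlapped, and the difference was -0.11 ± 0.07 (adjusted p = 0.83). Hspa8 had 4 rows with 1 symbol. Their identifiers carry chromosomes 1, 6 and 14, whereas the gene lies on chromosome 9, so these rows may read copies of Hspa8 elsewhere in the genome. A row on chromosome 9 is shared in the annotation by Hspa8 and small nucleolar RNA genes and was not fitted. It measured 15.73, 15.99 and 15.69 in Dnmt3b-KO, against 16.15, 16.04 and 16.03 in control, with no overlap, unlike the row used. The row shared by Hspa8 and Gm15459 did not overlap either, at 18.03, 18.17 and 18.03 in Dnmt3b-KO, against 18.28, 18.24 and 18.28 in control. For the other 80 members the row identifier carries the chromosome of the gene. Hspa14, which serves at the ribosome, measured 9.15 on Dnmt3b-KO replicate 3, below all controls, and 9.60 and 9.89 on the other Dnmt3b-KO arrays.

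The HSP110 gene Hsph1, which encodes an exchange factor for HSP70, had the greatest fall of any member over 5 arrays. It measured 9.03, 9.37 and 10.13 in Dnmt3b-KO, against 10.20, 10.52 and 10.05 in control. Dnmt3b-KO replicates 1 and 2 lay below all controls and replicate 3 within them. Over 5 arrays Hsph1 fell by 1.06 ± 0.16 (SE; adjusted p = 0.039), and over 6 the difference was -0.75 ± 0.30 (adjusted p = 0.78). Leaving out any 1 of the 5 arrays ended the call, with adjusted p from 0.062 to 0.23, and the change then ran from -1.23 to -0.89. The other genes of the group followed different patterns. Hspbp1, a further exchange factor, measured 8.18, 8.36 and 9.15 in Dnmt3b-KO, against 8.51, 8.54 and 8.89 in control, low on replicates 1 and 2 and above all controls on replicate 3. Hspa4, another HSP110, measured 13.89, 14.08 and 14.56 in Dnmt3b-KO, against 14.24, 14.31 and 14.005 in control, with the groups overlapping. Hspa4l, its paralogue, ran the other way, at 9.54, 9.66 and 8.87 in Dnmt3b-KO, against 9.46, 9.46 and 9.32 in control. None of these 3 passed over 5 arrays (adjusted p = 0.24, 0.47 and 0.29).

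Of the 11 DNAJA and DNAJB genes of the cytosol and nucleus, 1 rose over 5 arrays and 10 did not pass. Dnajb4, a class B J-domain protein that delivers clients to HSP70, measured 7.76, 7.82 and 7.05 in Dnmt3b-KO, against 7.29, 7.28 and 7.23 in control. Replicates 1 and 2 lay above all controls and replicate 3 below them. Over 5 arrays it rose by 0.52 ± 0.06 (SE; adjusted p = 0.020), and over 6 the difference was 0.28 ± 0.21 (adjusted p = 0.83). The call ended on leaving out either Dnmt3b-KO array or control replicate 1 or 3, with adjusted p up to 0.13, and held without control replicate 2 (adjusted p = 0.048). Dnajb1, the best-known HSP40 and a heat-inducible gene, measured 9.77, 9.999 and 8.83 in Dnmt3b-KO, against 9.96, 10.07 and 9.98 in control. It lay below all controls on replicates 1 and 3, furthest on replicate 3, and within them on replicate 2. Dnaja2, a class A J-domain protein, measured 12.83, 12.83 and 13.19 in Dnmt3b-KO, against 12.83, 12.83 and 12.61 in control, a difference of 0.20 ± 0.13 (adjusted p = 0.83). Dnajb3 and Dnajb8, best known from testis, lay below the median gene. Dnajb3 measured 3.69, 3.78 and 3.77 in Dnmt3b-KO, against 3.80, 3.91 and 3.86 in control, and Dnajb8 measured 3.41, 3.504 and 3.55 in Dnmt3b-KO, against 3.39, 3.43 and 3.33 in control.

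Among the other DNAJC genes, Dnajc6 was low on all 3 Dnmt3b-KO arrays. Dnajc6 encodes auxilin, whose J-domain brings HSC70 to clathrin-coated vesicles for uncoating, best known from neurons. It measured 4.85, 4.92 and 4.78 in Dnmt3b-KO, against 5.73, 5.87 and 5.75 in control. Replicate 3 lay with the other Dnmt3b-KO arrays, 0.11 below their mean. Over 5 arrays Dnajc6 fell by 0.90 ± 0.07 (SE; adjusted p = 0.0067), and over 6 the difference was -0.93 ± 0.07 (adjusted p = 0.18). With array weights over 6 arrays it passed (adjusted p = 0.0082), though Dnmt3b-KO replicate 3 then had a weight of 0.11. Without Dnmt3b-KO replicate 1 or 2 the 5-array call ended (adjusted p = 0.088 and 0.062). In Dnmt3b-KO Dnajc6 lay near the median gene, so the size of the fall is not exact.

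The remaining 18 genes of that group did not pass. Dnajc4 measured 9.49, 9.45 and 9.07 in Dnmt3b-KO, against 9.10, 9.21 and 9.28 in control, above all controls on replicates 1 and 2 and below them on replicate 3 (0.27 ± 0.07 over 5 arrays, SE; adjusted p = 0.14). Dnajc13, which acts in endosomal sorting, had its Dnmt3b-KO arrays placed likewise, at 13.03, 13.05 and 12.64 in Dnmt3b-KO, against 12.91, 12.93 and 12.87 in control. Dnajc9, a histone chaperone of dividing cells, measured 10.90, 11.26 and 9.91 in Dnmt3b-KO, against 11.03, 11.03 and 10.87 in control, and was low on replicate 3 alone. Dnajc27 was above all controls on every Dnmt3b-KO array, at 7.53, 7.50 and 7.72 in Dnmt3b-KO, against 7.395, 7.45 and 7.37 in control (0.18 ± 0.08 over 6 arrays; adjusted p = 0.81). Dnajc5, the cysteine string protein of secretory vesicles, measured 10.90, 10.87 and 10.28 in Dnmt3b-KO, against 10.85, 10.70 and 10.76 in control. Replicates 1 and 2 lay above all controls and replicate 3 below them. Dnajc8, which is linked to pre-mRNA splicing, overlapped with control, at 8.89, 8.87 and 8.77 in Dnmt3b-KO, against 8.72, 8.86 and 8.65 in control.

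**Figure D2:**
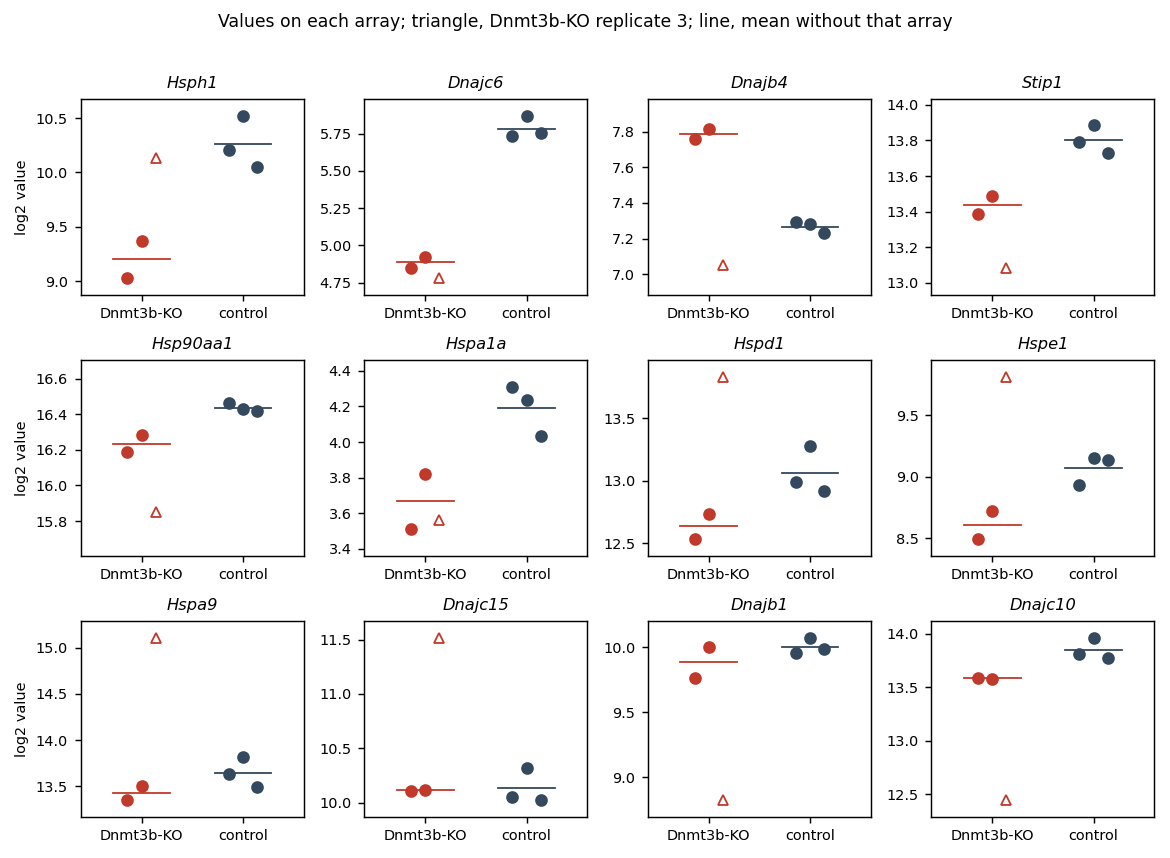
Log2 value (vertical axis, own scale per panel, at least 1.1 units tall) of 12 member genes on each array, Dnmt3b-KO in red and control in dark blue. Open triangles are Dnmt3b-KO replicate 3, and lines are the means without that array. Dnajc6, Stip1, Hsp90aa1 and Hspa1a are lower on all 3 Dnmt3b-KO arrays than on any control, while in the panels of Hspd1, Hspe1, Hspa9 and Dnajc15 the triangle lies above every other point.

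Of the 7 members grouped as mitochondrial, 5 lay above all controls on Dnmt3b-KO replicate 3. On that array 39.0% of all genes, and 29.5% of those above the median level, did so. Hspd1 and Hspe1 encode HSP60 and HSP10, which together form the folding chamber of the mitochondrial matrix, and Hspa9 encodes the HSP70 of the matrix. Hspd1 measured 12.53, 12.74 and 13.83 in Dnmt3b-KO, against 12.99, 13.28 and 12.92 in control. Hspe1 measured 8.49, 8.72 and 9.81 in Dnmt3b-KO, against 8.93, 9.15 and 9.13 in control. Both were below all controls on replicates 1 and 2 and above all controls on replicate 3. Over 5 arrays the differences were -0.43 ± 0.12 for Hspd1 and -0.47 ± 0.10 for Hspe1 (SE; adjusted p = 0.17 and 0.092), and over 6 they were -0.03 ± 0.35 and -0.07 ± 0.35 (adjusted p = 0.99 and 0.98). Hspa9 measured 13.35, 13.50 and 15.10 in Dnmt3b-KO, against 13.63, 13.81 and 13.49 in control, overlapping on replicates 1 and 2 and highest on replicate 3. Dnajc15, a J-domain protein of the inner mitochondrial membrane, measured 10.11, 10.12 and 11.52 in Dnmt3b-KO, against 10.05, 10.32 and 10.03 in control. Dnaja3, the J-domain partner of HSP70 in the matrix, measured 9.66, 9.72 and 10.19 in Dnmt3b-KO, against 9.81, 9.98 and 9.86 in control, with its Dnmt3b-KO arrays placed as for Hspd1. The other members of the group, Dnajc11 and Dnajc30, were not placed in this way. Of 11 mitochondrial chaperones and proteases outside the members, 3 lay above all controls on replicate 3, 4 below and 4 within. All 11 lie above the median gene, where 29.5% of genes lay above the controls and 55.7% below. The median departure of the 11 on replicate 3 from the mean of replicates 1 and 2 was 0.12.

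The pseudogenes of Hspe1 were measured by rows of their own, and 1 of them passed the test. Hspe1-ps3 measured 10.22, 10.14 and 11.02 in Dnmt3b-KO, against 10.54, 10.59 and 10.65 in control, placed as for Hspe1. Over 5 arrays it fell by 0.42 ± 0.06 (SE; adjusted p = 0.037), and leaving out any 1 array ended that call (adjusted p from 0.095 to 0.20). Hspe1-ps5 measured 7.98, 7.98 and 8.13 in Dnmt3b-KO, against 8.13, 8.19 and 8.33 in control (-0.24 ± 0.07 over 5 arrays; adjusted p = 0.20). Hspe1-ps2 and Hspe1-ps6 overlapped with control, and so did Dnajc19-ps, at 9.69, 9.73 and 9.86 in Dnmt3b-KO, against 9.50, 9.72 and 9.66 in control. Rows of a pseudogene can take up RNA of the parent gene, and whether this row reads Hspe1 RNA was not tested.

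In the endoplasmic reticulum, 0 of 12 members passed in either comparison. Hspa5, which encodes the HSP70 of this compartment (BiP), overlapped with control, at 14.54, 14.95 and 14.89 in Dnmt3b-KO, against 14.80, 14.83 and 14.62 in control. Hsp90b1, its HSP90 (GRP94), lay below all controls on each Dnmt3b-KO array, at 15.13, 15.20 and 15.26 in Dnmt3b-KO, against 15.42, 15.51 and 15.28 in control (-0.20 ± 0.08 over 6 arrays, SE; adjusted p = 0.78). Dnajc10, a J-domain disulfide reductase, also lay below all controls, at 13.59, 13.58 and 12.45 in Dnmt3b-KO, against 13.81, 13.96 and 13.77 in control. Its difference was -0.64 ± 0.32 over 6 arrays (adjusted p = 0.82) and -0.26 ± 0.07 over 5 (adjusted p = 0.16), and replicate 3 was the lowest of its values. Dnajc3 and Dnajb9 had replicates 1 and 2 above all controls and replicate 3 below them. Dnajc3, which restrains the kinase PERK, measured 12.17, 12.15 and 11.16 in Dnmt3b-KO, against 12.00, 12.00 and 11.93 in control. Dnajb9, a J-domain partner of BiP, measured 11.70, 11.99 and 11.28 in Dnmt3b-KO, against 11.68, 11.60 and 11.56 in control. Dnajb14, a J-domain protein of the membrane of this compartment, measured 7.28, 7.29 and 7.44 in Dnmt3b-KO, against 7.19, 7.29 and 7.22 in control, a difference of 0.10 ± 0.07 over 6 arrays (adjusted p = 0.83).

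Of the 7 small heat shock proteins 6 lay below the median gene, with mean values of 3.04 to 4.77, and the seventh was Hspb6. Hspb6 measured 7.04, 6.89 and 5.81 in Dnmt3b-KO, against 6.65, 6.29 and 6.66 in control. It was above all controls on replicates 1 and 2 and below them on replicate 3 (0.43 ± 0.13 over 5 arrays, SE; adjusted p = 0.18). Hspb1, the widely studied HSP27 homologue, measured 4.33, 4.40 and 4.32 in Dnmt3b-KO, against 4.39, 4.45 and 4.41 in control, all below the median gene. Hspbap1 measured 6.35, 6.42 and 6.66 in Dnmt3b-KO, against 6.51, 6.70 and 6.72 in control (-0.26 ± 0.08 over 5 arrays; adjusted p = 0.20).

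**Figure D3:**
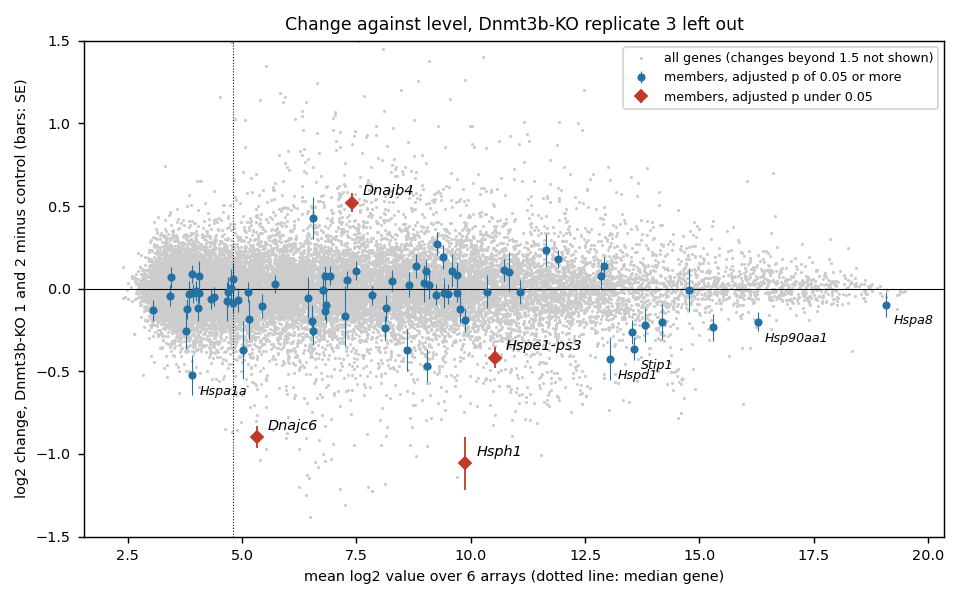
Log2 change of each gene over 5 arrays (vertical axis, Dnmt3b-KO replicates 1 and 2 minus control, bars SE for members) against its mean log2 value over 6 arrays (horizontal axis). Grey points are all genes, blue circles members that did not pass, and red diamonds the 4 called members, of which Hsph1, Dnajc6 and Hspe1-ps3 lie below 0 and Dnajb4 above.

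Promoter sequences are given for Hsph1 and Dnajb4, the called genes whose windows held a heat shock element core, and for Hspe1, which faces Hspd1. They come from RefSeq (GRCm38.p6) and cover the 250 bases before an annotated start, at chr5:149636337-149636586 (minus strand) for Hsph1, chr1:55087898-55088147 (plus strand) for Hspe1 and chr3:152193846-152194095 (minus strand) for Dnajb4. Capitals mark matches to the 2-unit cores GAANNTTC and TTCNNGAA, each of which reads the same on both strands, and to 3-unit matches, in which one core of each kind overlap by a shared unit.
Hsph1: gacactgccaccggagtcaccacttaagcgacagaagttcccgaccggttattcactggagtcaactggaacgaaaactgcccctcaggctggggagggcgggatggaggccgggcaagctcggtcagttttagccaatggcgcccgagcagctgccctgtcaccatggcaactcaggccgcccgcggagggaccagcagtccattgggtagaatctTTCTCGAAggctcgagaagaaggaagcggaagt
Hspe1: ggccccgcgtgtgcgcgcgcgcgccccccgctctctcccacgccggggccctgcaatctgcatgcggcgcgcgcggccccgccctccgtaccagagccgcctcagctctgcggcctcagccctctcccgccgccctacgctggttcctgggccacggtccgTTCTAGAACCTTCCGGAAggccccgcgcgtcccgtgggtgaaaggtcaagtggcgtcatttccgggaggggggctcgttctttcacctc
Dnajb4: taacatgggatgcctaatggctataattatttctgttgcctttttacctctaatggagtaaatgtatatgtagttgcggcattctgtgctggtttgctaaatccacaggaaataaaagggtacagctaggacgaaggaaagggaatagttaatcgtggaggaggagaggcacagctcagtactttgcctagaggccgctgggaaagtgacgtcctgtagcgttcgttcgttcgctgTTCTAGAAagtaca

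In the Hspe1 sequence the matches join into 1 run at bases -89 to -72 from the start. The Hspe1 window, taken with the 50 bases after the start, overlaps the window of one Hspd1 start on the opposite strand by 285 bases and the 2 starts lie 216 bases apart, so that window holds the run too. In Hsph1 a core lies at bases -33 to -26, and a 3-unit match lies at bases 37 to 49 after the same start. In Dnajb4 a core lies at bases -14 to -7 of 1 of its 2 windows. A 2-unit core was found in 15 of the 60 members with a window (25.0%), against 17.0% of 27025 genes, and a 3-unit match in 4 of 60 (6.67%), against 0.662%. The 4 were Hspd1, Hspe1, Hsph1 and Dnajb6. Dnajb6, a J-domain protein that holds back aggregation, measured 9.07, 9.09 and 8.98 in Dnmt3b-KO, against 8.97, 9.05 and 8.89 in control, a difference of 0.11 ± 0.07 over 5 arrays (SE; adjusted p = 0.54). Among the 4, this was the only difference over 5 arrays above 0. Of them only Hsph1 was called, and Hspd1 and Hspe1 share 1 run. Whether matches go with differences was not tested. A match is a description of these letters and shows no binding.

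Dnmt3b-KO replicate 3 differed from the mean of replicates 1 and 2 by 1 or more for 9 members. Hspa9 (1.68), Dnajc15 (1.40), Hspe1 (1.21) and Hspd1 (1.20) were higher there, 4 of 81 members against 4.03% of all genes. Dnajc9 (-1.17), Hspb6 (-1.15), Dnajc10 (-1.14), Dnajb1 (-1.05) and Dnajc3 (-1.002) were lower, 5 of 81 against 2.94%. Among genes above the median level these shares were 6.5% and 5.86%, against 4 and 5 of the 62 members there. All 4 members on the higher side belong to the 7 genes grouped as mitochondrial, whose median departure was 1.20. The 12 genes grouped to the endoplasmic reticulum had a median of -0.29. The groups were drawn with the values in view, so this contrast depends on them. The 19 other DNAJC genes were not split by compartment, and their departures ran from -1.17 to 0.54, with a median of -0.10. The median was 0.02 over all genes and -0.15 over those above the median level, where all 12 of the endoplasmic reticulum lie. On this array 9 of those 12 lay below all controls, and 5 of the 7 mitochondrial genes above them. A list of 17 genes of the unfolded protein response of the endoplasmic reticulum, outside the members, was mixed there. Of these 17, 9 lay below all controls, 7 above and 1 within. Their departures ran from -0.998 to 2.47, with a median of -0.13, and 2 were higher by 1 or more. Of all 81 members 36 lay below the controls, 27 above and 18 within, where 36.4%, 39.0% and 24.6% of all genes did. Among genes above the median level 55.7% lay below and 29.5% above, against 29 and 22 of the 62 members there. This is 1 array and was not tested. On the same array the macrophage markers described above were high and the leukaemia and neutrophil lists low, and their part in these values was not tested.

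**Figure D4:**
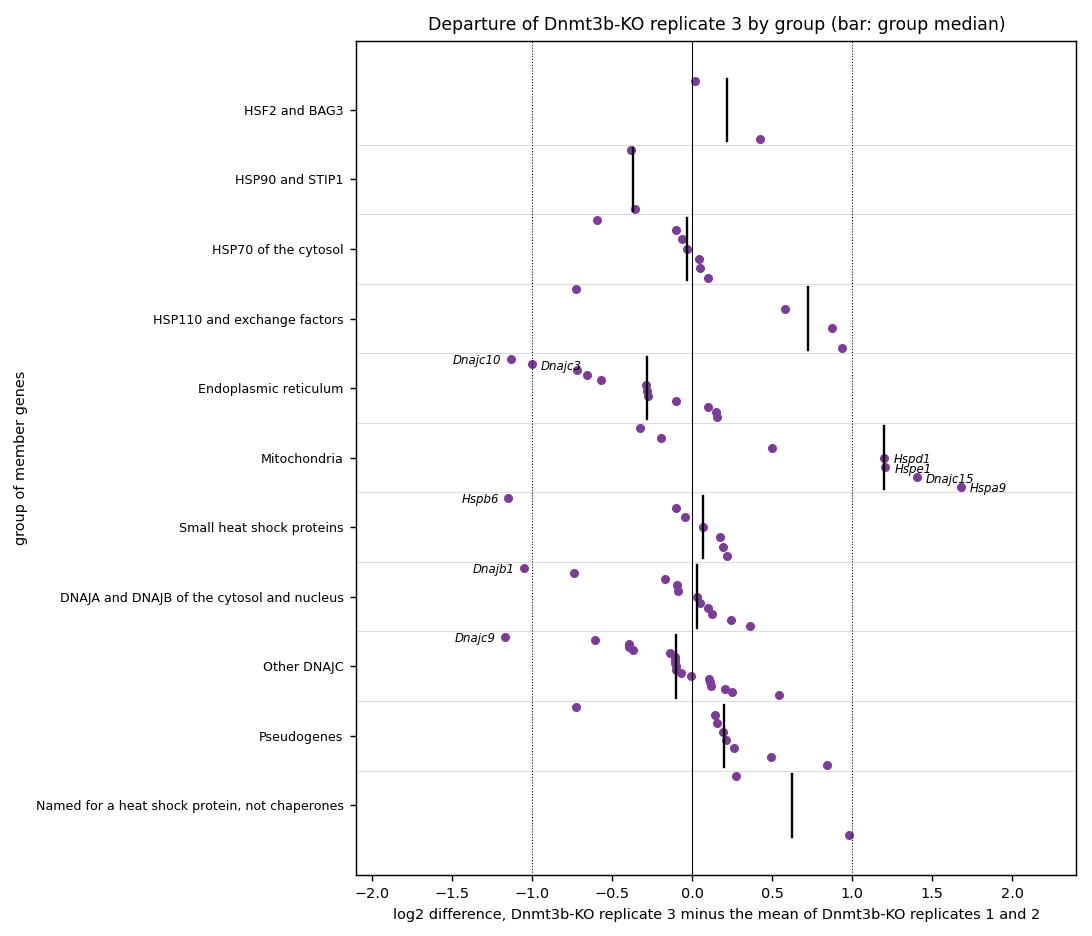
Log2 difference between Dnmt3b-KO replicate 3 and the mean of Dnmt3b-KO replicates 1 and 2 (horizontal axis) for each member, by group (vertical axis). Bars are group medians, dotted lines mark 1 in either direction, and genes beyond them are named, with Hspa9, Dnajc15, Hspe1 and Hspd1 on the right.

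Partners of these chaperones were compared next. Of 92 measured genes in 7 lists of partners, 1 rose, 0 fell and 91 did not pass over 5 arrays, where 1.69% of all genes were called, and none passed over 6. The gene that rose was Fnip1, an HSP90 co-chaperone that binds folliculin, at 12.32, 12.33 and 12.01 in Dnmt3b-KO, against 11.79, 11.90 and 11.92 in control (0.46 ± 0.06 over 5 arrays, SE; adjusted p = 0.031). That call ended on leaving out any 1 of the 5 arrays. Differences over 5 arrays were below 0 for 15 of 23 HSP90 co-chaperones (median -0.07), 6 of 9 BAG and other exchange factors (-0.04) and 9 of 13 subunits of the TRiC and prefoldin complexes (-0.08). They were below 0 for 6 of 9 heat shock factors and HSF1 regulators (-0.02), 11 of 17 genes of the unfolded protein response (-0.03), 7 of 11 mitochondrial chaperones and proteases (-0.12) and 9 of 15 other HSF1 targets (-0.08). Over all genes 16195 of 30142 were below 0 (-0.01). Fkbp4, chosen after its values were seen, encodes a co-chaperone that joins HSP90 at the stage after the Stip1 adaptor. It measured 10.78, 10.94 and 10.94 in Dnmt3b-KO, against 11.45, 11.75 and 11.35 in control, and the groups did not overlap. Of the 23 HSP90 co-chaperones 5 did not overlap on the lower side and 3 on the higher side over 6 arrays, where 8.21% and 6.68% of all genes did so. All 23 lie above the median gene, where 11.6% of genes did so on the lower side. The share there on the higher side was not computed. The Fkbp4 difference of -0.63 ± 0.12 over 6 arrays did not pass (SE; adjusted p = 0.57).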

How the data were processed

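The deposited table holds log2 expression values of 72688 array rows on 6 arrays, which the authors made with RMA (version not stated), per the submitters' processing notes. Values reach 19.59, above the 16 of a 16-bit scanner, so a further step is not stated and differences are not given as folds. A probe table gave exactly 1 gene symbol to 30604 rows and several to 2146, which were not named, among them 7 with a symbol that meets the membership rule. Symbols of 827 rows were updated through the gene identifier. Each of 30142 genes was represented by its brightest row.

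The 2 genotypes were fitted with lmFit and eBayes of limma 3.58.1 under R 4.3.3, with Benjamini-Hochberg adjustment over all genes, using 6 arrays and then the 5 without Dnmt3b-KO replicate 3. The fits were tested on simulated data whose noise had the spread of the controls on every array. Those data held no deviating array such as Dnmt3b-KO replicate 3. The rule for named genes takes Hsf2, Hsph1, Bag3, Stip1, members past the threshold, up to 10 per direction and fit with the smallest p, those with the highest means (also within a role), with a departure of replicate 3 of 1 or more, or with a difference of 0.5 or more over 6 arrays, 37 in all, and list genes past the threshold. Hspa14, Hspbp1, Dnaja3, Dnajc11, Dnajc30, Hspb1, Hspe1-ps2, Hspe1-ps6 and Hspb11 fall outside it and were chosen after their values were seen. Members, lists and rules were chosen with earlier results of these data known, and role groups with the values in view. Settings varied were the variance model, weighting of arrays, blocking by replicate number, scaling by quantiles or medians, removal of dim genes, averaging of rows, moderation of variances, the threshold and the arrays included. The number of arrays limits the precision, and because separate mice are not stated the p-values describe only differences among these arrays, possibly technical ones.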

Additional observations from a re-analysis of the deposited data

How the results depend on the processing

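Over 6 arrays the count of 0 called members became 1 with array weights and ran from 0 to 4 on leaving out 1 array, where the 4 came without Dnmt3b-KO replicate 3. It stayed 0 under every other alternative run. The count of called list genes over 6 arrays ran from 0 to 1 on leaving out 1 array. Over 5 arrays the 4 called members became 2 with the replicate number as a block, 0 without empirical Bayes, 5 with genes below the 40th percentile removed, 6 under a looser threshold of 0.1 and 0 to 2 on leaving out 1 more array, where a single remaining Dnmt3b-KO array borrows its spread from the controls. The 1 called list gene became 0 with the replicate number as a block, 0 without empirical Bayes, 4 under that looser threshold, 3 with that filter and 0 on leaving out any 1 array. The filter tests fewer genes; for the other settings the cause was not tested. Same-numbered arrays had correlated deviations of 0.13, 0.03 and 0.11, and for different-numbered arrays the values ran from -0.12 to 0.09. The main fits did not take the numbers as pairs, and these values do not settle whether they mark pairs. The 4 called members kept their sign under every alternative over 5 arrays, but over 6 arrays Hspe1-ps3 changed sign to 0.02 without Dnmt3b-KO replicate 2. Named members that had not passed in a comparison changed sign in 36 values over 6 arrays, 27 of them on leaving out 1 array, and in 8 over 5 arrays. Hspa1a, Dnajb3 and Dnajb8 fell out of the filter on dim genes. Signal near the median gene limits the size of the differences of Hspa1a and Dnajc6.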
